A study of Mus musculus with 8 samples.

Results

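Tendon and fascia genes were examined in mouse quadriceps muscle as a group of 9, *Scx*, *Mkx*, *Tnmd*, *Fmod*, *Kera*, *Chad*, *Comp*, *Thbs4* and *Prg4*, chosen by gene name as factors of tenocytes and genes of the tendon matrix, out of 47643 genes in the deposited table. RNA came from the quadriceps of 4 *Nup210*+/+ (wild-type) and 4 *Nup210*-/- (knockout) mice labelled C57BL/6 (backcrossed to C57BL/6J), with 1 polyadenylated RNA library per mouse. The *Nup210*-/- line is a constitutive knockout, made by Hprt-Cre recombination of a loxP-flanked exon 2, so the deletion is present in the cells of tendon and fascia as well as in muscle fibers. The age and sex of these 8 mice were not given in the sources used here. The comparison asked whether loss of Nup210, a transmembrane protein of the nuclear pore, was accompanied by other transcript levels in muscle.

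Muscle fibers are joined to bone by tendon and are wrapped in sheets of fascia, and a dissected quadriceps can carry both. Tendon cells, or tenocytes, depend on the transcription factors Scleraxis (*Scx*) and Mohawk (*Mkx*) and make parallel fibrils of type I collagen. Proteoglycans with leucine-rich repeats bind these fibrils and set their width, pentameric thrombospondins bridge collagen and cells, and lubricin (*Prg4*) coats the surfaces that slide. Most of these proteins are also made by cartilage, and some by general fibroblasts.

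The values deposited are TPM, the usual length-corrected share of a library's transcripts, an estimate for each gene divided by transcript length and brought to the same total in each library. The number of reads behind a value is unknown, so precision rests on the spread between 4 mice. For tests, TPM were scaled between libraries and taken as log2(scaled TPM + 1), on which changes of weakly expressed genes come out too small. Fold changes are *Nup210*-/- minus *Nup210*+/+ on that scale, from limma over the 14229 genes averaging 0.5 TPM or more, with Benjamini-Hochberg adjustment over all of them. All 9 genes passed this filter.

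The libraries carried the genes that define skeletal muscle, with 8 markers such as *Acta1*, *Ckm* and *Myh4* summing to 84558.61 to 90665.48 TPM in knockouts and 78281.91 to 83265.28 TPM in wild type. *Nup210* itself was at 8.81 to 11.93 TPM in the libraries labelled *Nup210*-/- and 5.71 to 10.11 TPM in those labelled *Nup210*+/+. It was not lower in the former, and since a value per gene covers mostly exons outside the deletion it does not check the labels, so every direction below rests on them. Wild-type replicate 2 stood apart, with 381.69 TPM summed over 6 granulocyte precursor genes against 0.31 to 2.12 TPM in the other libraries, and values without it are given beside several results.

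All 9 genes had a lower estimate in knockout muscle, although *Mkx* turned higher without knockout replicate 3, while 51.3% of all genes tested were lower. Their median log2 fold change was -0.55, beside -0.01 over all genes. *Comp* differed most, with a log2 fold change of -0.98, and *Chad*, *Kera*, *Fmod*, *Tnmd*, *Thbs4* and *Prg4* lay between -0.79 and -0.46, whereas the factors *Scx* and *Mkx* lay at -0.09 and -0.06. No member passed an adjusted p of 0.05 in limma in either direction, as 0.0633% of all genes did when lower and 0.0492% when higher (9 and 7 genes, and 12 and 2 on TPM as deposited). At an unadjusted p of 0.05, 6 of the 9 were lower (*Tnmd*, *Comp*, *Fmod*, *Thbs4*, *Chad* and *Kera*), beside 7.18% of all genes tested, and none were higher, beside 7% of all genes. Without wild-type replicate 2 this count was 6 as well, beside 1826 of 14090 genes past that p in either direction. The log2 fold changes of *Comp*, *Chad*, *Fmod*, *Thbs4* and *Prg4* were then -1.09, -0.91, -0.73, -0.63 and -0.60 (lowest limma adjusted p 0.0905, for *Comp*). A fold change of 1.5 or more was seen in 4 (*Comp*, *Fmod*, *Chad* and *Kera*), all lower, beside 3.06% of all genes lower and 1.16% higher. This count depends on the scaling. On TPM as deposited *Tnmd* (-0.64) and *Thbs4* (-0.60) also reached it, and with upper-quartile scaling *Fmod* (-0.57) fell short. The share of all genes was not counted under those scalings. These 9 transcripts come from the same 8 tissue samples and are not 9 independent observations. They were also chosen with earlier results of these data known, so the shares of all genes are not a like background for them. In bulk muscle, fewer tendon and fascia cells and less of these transcripts per cell cannot be told apart.

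**Figure D1:**
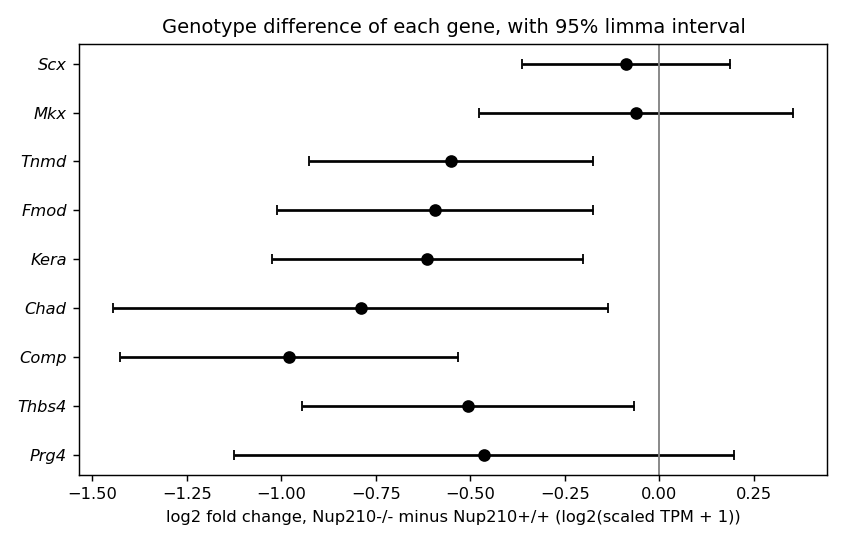
Log2 fold change of each gene (knockout minus wild type, on log2(scaled TPM + 1), horizontal axis), with points for the limma estimate and bars for its 95% interval. *Scx* and *Mkx* lie near 0, at -0.09 and -0.06, and the 7 matrix and membrane genes lie between -0.98 and -0.46, where only the interval of *Prg4* among them includes 0.

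*Scx* (ENSMUSG00000034161, chromosome 15, 76457452 to 76459458, GRCm38) encodes the basic helix-loop-helix factor that marks tendon progenitors. It was at 3.70, 5.05, 4.89 and 4.98 TPM in knockout replicates 1 to 4 and at 6.03, 5.78, 4.63 and 4.91 TPM in wild-type replicates 1 to 4. The genotypes overlapped, and the log2 fold change of -0.09 had a 95% interval from -0.36 to 0.19 (limma adjusted p = 0.775). *Mkx* (ENSMUSG00000061013) encodes a homeobox factor that keeps tendon collagen expression up after birth. It was the least abundant of the 9, at 1.10, 0.96, 0.27 and 0.77 TPM in knockouts and 1.01, 0.69, 1.05 and 0.79 TPM in wild type. Knockout replicate 3 was the lowest library for *Mkx*, and without it the log2 fold change of -0.06 (95% interval -0.48 to 0.35, limma adjusted p = 0.907) turned to 0.10. The interval of *Mkx* leaves room for a moderate change in either direction, and that of *Scx* for a moderate fall or a small rise.

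*Tnmd* (ENSMUSG00000031250, chromosome X, 133850980 to 133865577) encodes tenomodulin, a membrane glycoprotein that is a marker of mature tenocytes and a known target of Scleraxis. It was at 6.91, 7.93, 5.39 and 6.47 TPM in knockouts and 12.04, 7.75, 11.86 and 12.39 TPM in wild type. Wild-type replicate 2 lay far below the other libraries of its genotype, at the level of the highest knockout library, and this pair alone made the genotypes overlap. The mean was 6.68 ± 1.05 TPM in knockouts and 11.0 ± 2.18 TPM in wild type (SD, n = 4). On the log2 scale the difference was -0.55 (SE 0.166, limma adjusted p = 0.203; exact permutation test, p = 0.0571). Without wild-type replicate 2 it was -0.70, with a limma adjusted p of 0.0948.

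**Figure D2:**
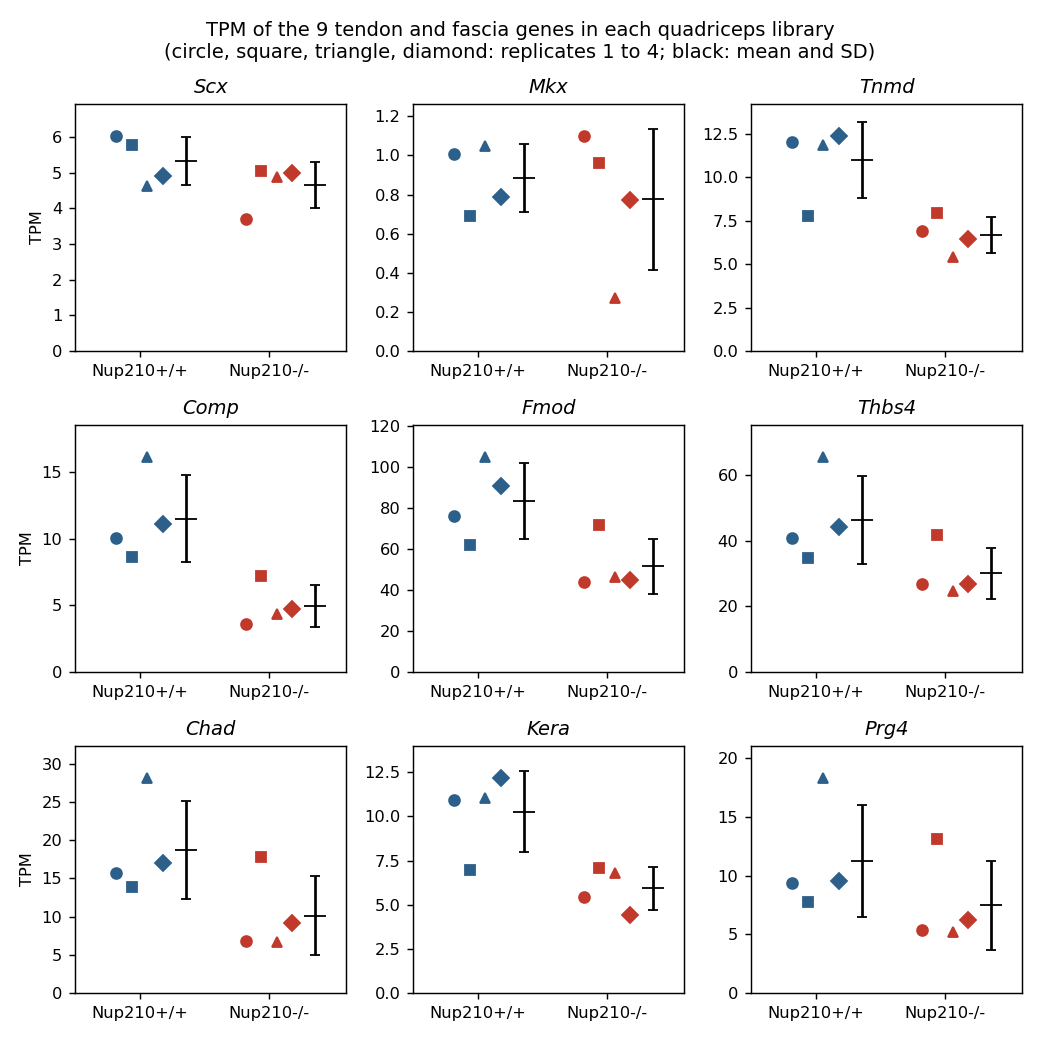
TPM of each of the 9 genes (vertical axes, each starting at 0) in 4 wild-type libraries (blue) and 4 knockout libraries (red), with a marker shape for each replicate number and the mean and SD in black. *Comp* has no overlap, from 3.61 to 7.25 TPM in knockouts and from 8.64 to 16.17 TPM in wild type, while *Scx* and *Mkx* overlap over most of their ranges.

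*Fmod*, *Kera* and *Chad* encode proteins with leucine-rich repeats. Fibromodulin (*Fmod*, ENSMUSG00000041559, chromosome 1, 134037254 to 134048277) binds type I collagen and steers fibril assembly and crosslinking. It was the most abundant of the 9 genes in every library, at 43.66, 71.64, 46.31 and 44.92 TPM in knockouts and 76.24, 62.06, 104.96 and 90.55 TPM in wild type. In knockouts, replicate 2 was far above the other libraries and was the only one to reach the wild-type range. The mean was 51.6 ± 13.4 against 83.5 ± 18.5 TPM (SD, n = 4), and the log2 fold change was -0.59 (SE 0.185, limma adjusted p = 0.21; exact permutation test, p = 0.0571).

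Keratocan (*Kera*, ENSMUSG00000019932, chromosome 10, 97606879 to 97613692) is a keratan sulfate proteoglycan best known from the cornea and also found in tendon. It was at 5.43, 7.07, 6.78 and 4.41 TPM in knockouts and 10.91, 6.95, 11.03 and 12.19 TPM in wild type. As for *Tnmd*, wild-type replicate 2 was the low library of its genotype, and without it the genotypes did not overlap. Its log2 fold change was -0.61 (SE 0.182, limma adjusted p = 0.199; exact permutation test, p = 0.0857), and without that library -0.77 (limma adjusted p = 0.0948). Chondroadherin (*Chad*, ENSMUSG00000039084, chromosome 11, 94565047 to 94569127) binds cells through integrins. It was at 6.84, 17.78, 6.73 and 9.16 TPM in knockouts and 15.75, 13.94, 28.20 and 17.07 TPM in wild type. Replicate 2 of knockouts was above 3 of the 4 wild-type libraries, and the other knockout libraries were below all of them. The log2 fold change was -0.79 (SE 0.289, limma adjusted p = 0.27; exact permutation test, p = 0.114). It was -1.07 without knockout replicate 2 (limma adjusted p = 0.161) and -0.62 without wild-type replicate 3 (limma adjusted p = 0.418). These were the ends of its range with single libraries left out.

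*Comp* and *Thbs4* encode thrombospondins that assemble into pentamers. Cartilage oligomeric matrix protein (*Comp*, ENSMUSG00000031849, chromosome 8, 70373558 to 70382066) binds collagen fibrils in tendon and cartilage. It was at 3.61, 7.25, 4.37 and 4.74 TPM in knockouts and 10.09, 8.64, 16.17 and 11.14 TPM in wild type. No other member had every knockout library below every wild-type library. On scaled TPM 4.6% of all genes tested were lower without overlap and 4.78% higher, and on TPM as deposited 6.87% and 1.54%, and none of the 9 was higher without overlap on either. The mean was 4.99 ± 1.58 in knockouts and 11.5 ± 3.27 TPM in wild type (SD, n = 4), a ratio of 2.305. Its log2 difference of -0.98 (95% interval -1.43 to -0.53) ranked 96th of 14229 genes from the lowest. Its limma adjusted p was 0.11, and its exact permutation p of 0.0286 is the smallest that 4 against 4 libraries can give.

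Thrombospondin 4 (*Thbs4*, ENSMUSG00000021702, chromosome 13, 92751590 to 92794818) is deposited at the myotendinous junction and in tendon. It was at 26.76, 41.68, 24.76 and 26.84 TPM in knockouts and 40.84, 34.59, 65.45 and 44.15 TPM in wild type. The high library of knockouts was again replicate 2, which passed 2 of the wild-type libraries. The log2 fold change was -0.51 (SE 0.195, limma adjusted p = 0.29; exact permutation test, p = 0.0857).

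Lubricin (*Prg4*, ENSMUSG00000006014, chromosome 1, 150449412 to 150466165) is secreted onto joint and tendon surfaces. It was at 5.38, 13.09, 5.17 and 6.25 TPM in knockouts and 9.34, 7.76, 18.35 and 9.51 TPM in wild type. Knockout replicate 2 and wild-type replicate 3 were far above the others of their genotype, and the genotypes overlapped. On the log2 scale the difference was -0.46 (95% interval -1.12 to 0.20, limma adjusted p = 0.492; exact permutation test, p = 0.257). It was -0.73 without knockout replicate 2 and -0.26 without wild-type replicate 3. Exons of *Prg4* overlap those of *Tpr* on the opposite strand, at a mean of 38.8 TPM, and whether the estimates used the strand of the reads was not given in the sources used here. *Scx* and *Chad* overlap the spans of *Bop1* and *Acsf2*, also on the opposite strand, without shared exon sequence, and *Mkx* shares exon sequence with an annotated transcript on its own strand that is not in the table.

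The order of levels can be read from TPM, which are per length. In wild type it was *Fmod* (83.5), *Thbs4* (46.3), *Chad* (18.7), *Comp* (11.5), *Prg4* (11.2), *Tnmd* (11.0), *Kera* (10.3), *Scx* (5.34) and *Mkx* (0.885), all as mean TPM. *Fmod* was above *Thbs4*, *Thbs4* above *Chad*, *Chad* above *Comp* and *Tnmd* above *Kera* in all 4 libraries, although of these pairs only *Thbs4* and *Chad* had ranges that did not overlap. *Comp* was above *Prg4* in 3 libraries and *Prg4* above *Tnmd* in 2, so the order of these cannot be told from these mice. In knockouts the first 3 and the last 2 places were the same, but *Comp* was in place 7 instead of 4, at 4.99 TPM, close to *Scx* at 4.66. *Comp* was above *Scx* in 1 of the 4 knockout libraries, *Kera* above *Comp* in 2, *Tnmd* above *Kera* in 3 and *Prg4* above *Tnmd* in 1. The ranges of each of these pairs overlapped, so the order of these genes in knockouts cannot be told either.

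The 9 genes summed to 103.39, 172.45, 104.67 and 108.54 TPM in knockout replicates 1 to 4 and to 182.25, 148.16, 261.70 and 202.70 TPM in wild-type replicates 1 to 4. Replicate 2 was thus the highest knockout library and the lowest wild-type library, and these 2 overlapped. The shares of the 2 most abundant genes overlapped between genotypes. *Fmod* made up 41.4 to 44.2% of the sum in knockouts and 40.1 to 44.7% in wild type, and *Thbs4* 23.7 to 25.9% and 21.8 to 25%. *Comp* was 3.49 to 4.37% of the sum in knockouts and 5.5 to 6.18% in wild type, a pair of ranges that did not meet. These shares come from the same *Comp* values that were without overlap on TPM.

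**Figure D3:**
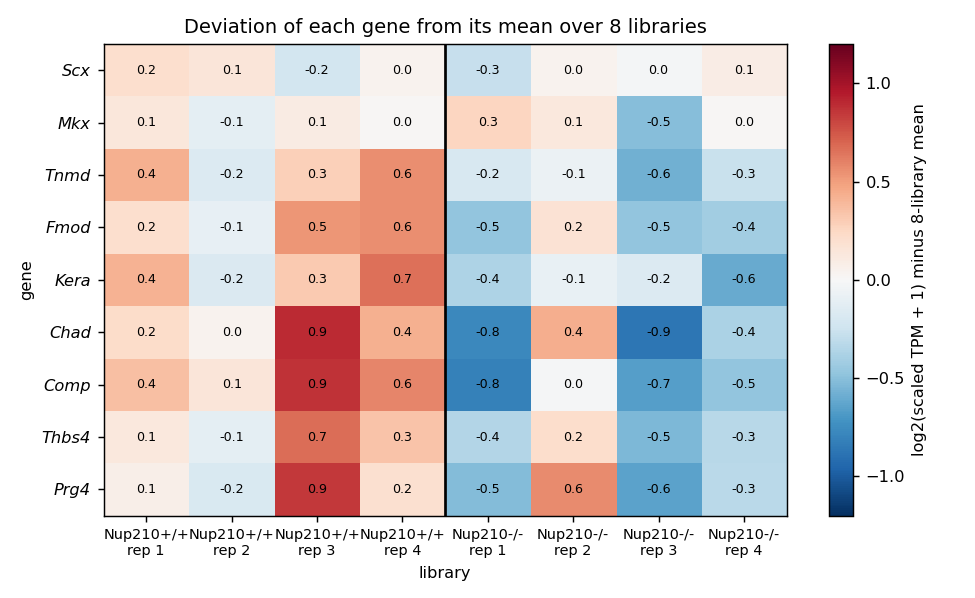
Deviation of each gene (rows) from its own mean over 8 libraries (columns, wild type left of the line and knockouts right of it), as log2(scaled TPM + 1), printed in each cell and colored from blue (lower) to red (higher). The matrix genes share high values in wild-type replicates 3 and 4 and low values in knockout replicates 1 and 3, while knockout replicate 2 is near or above the mean for most of them, and *Scx* and *Mkx* do not follow this order.

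Within a genotype the matrix genes were mostly high or low in the same libraries. On scaled TPM, knockout replicate 2 was the highest library of its genotype in 7 of the 9 genes, all except *Scx* and *Mkx*, and knockout replicate 3 the lowest in 6. Wild-type replicate 2 was the lowest of its genotype in 8 of the 9, all except *Scx*. Wild-type replicate 3 was the highest for *Comp*, *Thbs4*, *Chad* and *Prg4*, and replicate 4 for *Tnmd*, *Fmod* and *Kera*. Among the matrix genes the highest knockout library was 2.64 times the lowest for *Chad* on TPM as deposited, beside a ratio of 1.85 between the genotype means of that gene, and for *Mkx*, the gene with the lowest TPM, it was 4.07 times the lowest. Without knockout replicate 2, 6 genes (*Tnmd*, *Comp*, *Fmod*, *Thbs4*, *Chad* and *Prg4*) were lower without overlap, beside 7.22% of all genes in the same libraries. Without wild-type replicate 2, it was 4 genes (*Tnmd*, *Comp*, *Fmod* and *Kera*), beside 6.64%. Both libraries stood out in the values of these same genes, so these shares are not a like background for the counts. With any other single library left out, only *Comp* was without overlap.

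Pairs of related genes were compared within each library, where the scaling factor nearly cancels. *Comp* minus *Thbs4* was -1.91, -1.88, -1.95 and -1.90 in wild type, a difference that hardly varied between mice while both genes did. In knockouts it was -2.60, -2.37, -2.26 and -2.29, below every wild-type library. The means were -2.38 ± 0.155 and -1.91 ± 0.0272 (SD, n = 4), a difference of -0.47 with an exact permutation p of 0.0286, which was 0.114 after Benjamini-Hochberg adjustment over the 4 pairs compared. *Kera* minus *Fmod* was -2.92 ± 0.264 in knockouts and -2.90 ± 0.192 in wild type (SD, n = 4; difference -0.02, exact permutation p = 0.914). *Chad* minus *Fmod* differed by -0.20 (exact permutation p = 0.314), and *Tnmd* minus *Scx* by -0.46, from 0.90 ± 0.384 to 0.44 ± 0.279 (SD, n = 4; exact permutation p = 0.114), with overlap in both pairs. Without wild-type replicate 2 *Tnmd* minus *Scx* differed by -0.64 (exact permutation p = 0.0571, the smallest that 4 against 3 libraries can give).

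**Figure D4:**
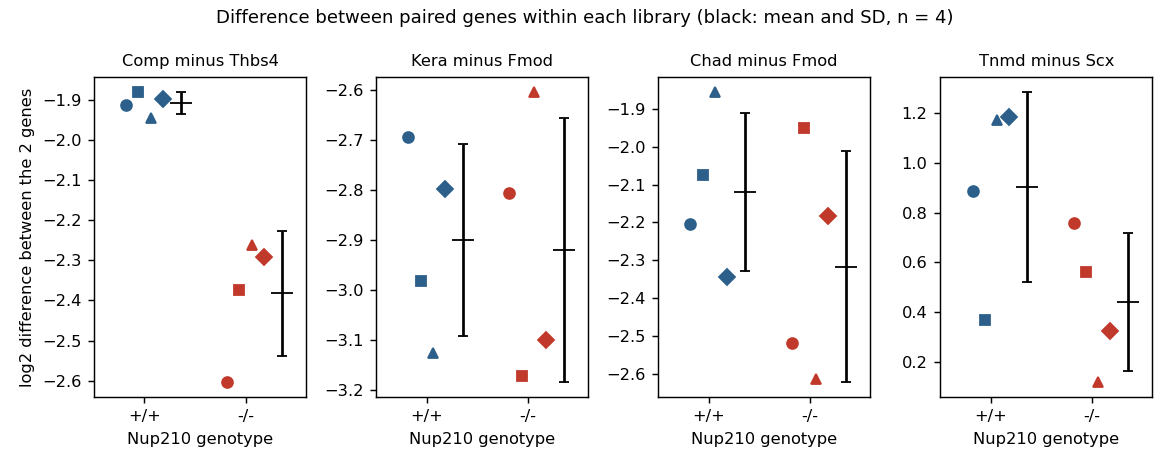
Difference in log2(scaled TPM + 1) between 2 genes of the same library (vertical axes, each with its own range), for 4 pairs, in wild type (blue) and knockouts (red), with mean and SD in black. *Comp* minus *Thbs4* is between -1.95 and -1.88 in wild type and between -2.60 and -2.26 in knockouts, and the other pairs overlap.

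Upstream sequence is shown for members that had a lower estimate together, because Scleraxis binds E-boxes of the form CANNTG. RefSeq windows on GRCm38.p6 were matched for 5 of the 9 genes, *Tnmd*, *Fmod*, *Thbs4*, *Chad* and *Kera*, and the 250 bases before the start were searched on both strands. The motif reads the same on both strands. *Fmod*, *Thbs4* and *Chad* each held 1 match, beginning at positions -189, -115 and -49 from the start, and *Tnmd* and *Kera* held none, while 66.2% of all 32817 windows held at least 1. The motif of Iroquois-type homeobox factors such as Mohawk, ACANNTGT, which contains an E-box, and the Egr motif GCGNGGGCG were in none of the 5 windows, beside 6.32 and 4.7% of all windows. Below are the last 200 bases before the start, 5′ to 3′ on the strand of the gene, with E-boxes in capitals, at chr1:134037054-134037253 (plus) for *Fmod*, chr11:94564847-94565046 (plus) for *Chad*, chr13:92794819-92795018 (minus) for *Thbs4* and chrX:133850808-133851007 (plus) for *Tnmd*. The last bases of the *Tnmd* window lie within its GENCODE transcript, and the whole *Kera* window lies downstream of its GENCODE start, so for *Kera* the search did not cover the sequence before that start. These matches are a description of the letters and were not measured as binding.
Fmod: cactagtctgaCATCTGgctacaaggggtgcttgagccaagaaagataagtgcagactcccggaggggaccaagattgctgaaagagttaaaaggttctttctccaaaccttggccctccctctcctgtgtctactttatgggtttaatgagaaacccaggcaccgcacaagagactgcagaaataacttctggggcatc
Chad: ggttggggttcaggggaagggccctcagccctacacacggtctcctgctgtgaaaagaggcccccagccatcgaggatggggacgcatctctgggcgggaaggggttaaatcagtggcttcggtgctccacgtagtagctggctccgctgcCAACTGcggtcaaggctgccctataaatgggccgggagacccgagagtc
Thbs4: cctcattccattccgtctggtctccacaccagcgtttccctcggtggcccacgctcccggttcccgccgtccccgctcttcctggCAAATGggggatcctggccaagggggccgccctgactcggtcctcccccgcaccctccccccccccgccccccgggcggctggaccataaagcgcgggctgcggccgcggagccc
Tnmd: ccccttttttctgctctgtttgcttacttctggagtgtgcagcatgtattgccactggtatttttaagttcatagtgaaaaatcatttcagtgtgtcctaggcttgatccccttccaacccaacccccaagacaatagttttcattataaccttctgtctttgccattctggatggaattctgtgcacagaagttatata

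Other genes of tendon were counted from lists of the pathway. Beside counts past an unadjusted p of 0.05 in these and the marker lists below, 7.18% of all genes were lower and 7% higher. Beside such counts without wild-type replicate 2, 1826 of 14090 genes were past that p in either direction. Of 12 collagens found in tendon, all 12 were tested and had a lower estimate in knockouts. They include *Col6a1*, *Col6a2* and *Col6a3*, which are not fibril collagens. Of the 12, 11 were past an unadjusted p of 0.05 and none past an adjusted p of 0.05, with a median log2 fold change of -0.46. *Col12a1*, a collagen on the fibril surface, had the lowest value, with 2.86 ± 0.805 TPM in knockouts and 5.06 ± 0.966 TPM in wild type (SD, n = 4; log2 fold change -0.58, limma adjusted p = 0.182), and *Col11a1* the highest, at -0.07 (limma adjusted p = 0.896). *Col1a1*, the main fibril chain, was at -0.55 (limma adjusted p = 0.191). Of 17 enzymes and chaperones of collagen processing, 15 were tested and 7 were lower at an unadjusted p of 0.05, with a median of -0.30. *Serpinh1*, the collagen chaperone of the endoplasmic reticulum, was at 49.3 ± 4.40 TPM in knockouts and 83.6 ± 11.5 TPM in wild type (SD, n = 4; log2 fold change -0.65, limma adjusted p = 0.0599), and *Loxl4* was at 0.04.

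Of 14 other leucine-rich repeat genes, 10 were tested, of which 4 (*Dcn*, *Bgn*, *Podn* and *Ecm2*) were lower at an unadjusted p of 0.05. The 10 had a median log2 fold change of -0.29, with *Prelp* at -0.39 and *Chadl* at 0.01. The other thrombospondins were *Thbs1* at -0.62 and *Thbs3* at -0.50, both past an unadjusted p of 0.05, and *Thbs2* at -0.16. Of 13 genes of gliding surfaces and hyaluronan 8 were tested, with a median of -0.11, and *Cd44* (-0.50) and *Vcan* (-0.45) were lower at an unadjusted p of 0.05, and *Clu* was highest at 0.13. *Cd44* was at 7.64 TPM in wild-type replicate 2 and lower in every other library, and without that library its log2 fold change was -0.27, no longer past an unadjusted p of 0.05.

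Genes that act upstream of tendon formation did not share a direction. Of 19 such regulators and signals, 17 were tested, and at an unadjusted p of 0.05 *Meox1*, *Meox2*, *Tgfbr2* and *Bmp4* were lower and genes including *Six2*, *Smad2* and *Smad3* were higher, with a median of -0.04. *Six2* was the highest, at 4.35 ± 0.899 TPM in knockouts and 2.61 ± 0.672 TPM in wild type (SD, n = 4; log2 fold change 0.64, limma adjusted p = 0.17). *Tgfb1* was the lowest, at -0.63 (limma adjusted p = 0.473), with 16.51 TPM in wild-type replicate 2 against at most 5.93 TPM elsewhere. Without that library *Tgfb1* was at -0.24 (limma adjusted p = 0.705) and was no longer the lowest. Of 16 genes of the myotendinous junction and of other tendon matrix 14 were tested, with a median of -0.15, and *Cilp2* (-0.66), *Fbln7* and *Ecm1* were lower and *Itga7* (0.21) higher at an unadjusted p of 0.05, and *Ankrd1* was at 0.43. Without wild-type replicate 2, 6 of these 14 were lower at an unadjusted p of 0.05. No gene of these 7 lists passed an adjusted p of 0.05 in limma.

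**Figure D5:**
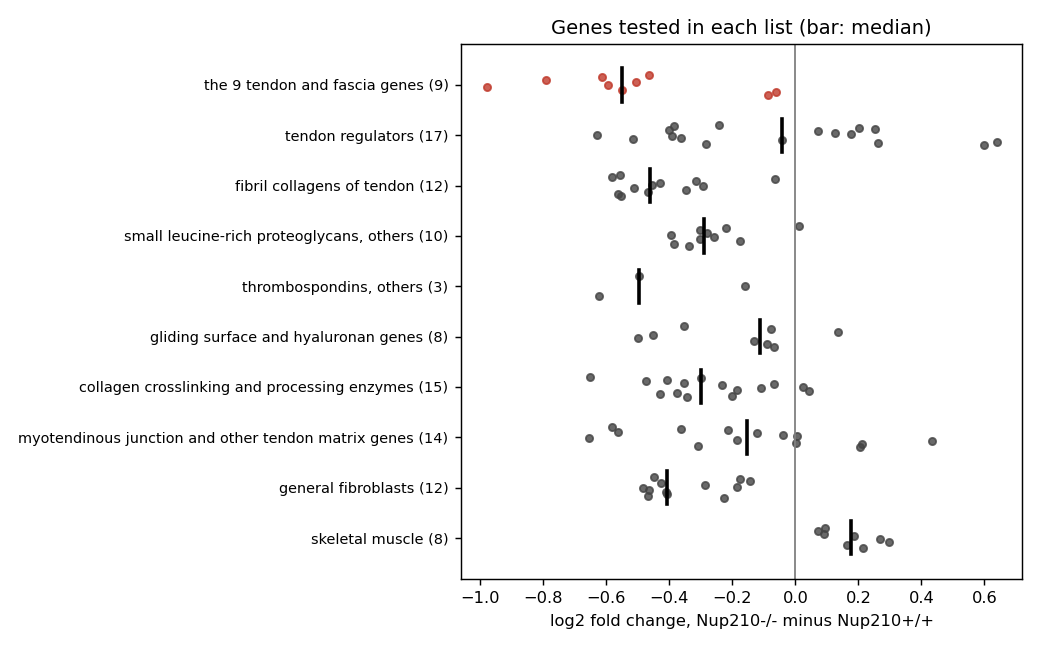
Log2 fold change (knockout minus wild type, horizontal axis) of every tested gene in each list, one point per gene, with a bar at the median and the number tested in brackets. The 9 tendon and fascia genes have a median of -0.55, tendon collagens -0.46, general fibroblast genes -0.41 and tendon regulators -0.04, and the 8 skeletal muscle markers lie above 0 with a median of 0.18.

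Markers of other cells were read beside these genes. All 12 markers of general fibroblasts, such as *Pdgfra*, *Dpt* and *Fbn1*, were tested and had a lower estimate in knockouts, with a median of -0.41, and they summed to 1105.89 to 1234.93 TPM in knockouts and 1103.77 to 2206.26 TPM in wild type. The lowest sum was in wild-type replicate 4, a library in which the 9 tendon and fascia genes were second highest. The highest sum was in wild-type replicate 3, which was also highest for the 9 genes. Among knockouts, replicate 2 was the highest library in both. The mean log2 value of the fibroblast markers differed by -0.34 between genotypes. Relative to that mean in the same library, *Comp* differed by -0.64 without overlap, *Chad* by -0.45, *Kera* by -0.27, *Fmod* by -0.25, *Tnmd* by -0.21, *Thbs4* by -0.16 and *Prg4* by -0.12 with overlap, and *Scx* and *Mkx* by 0.26 and 0.28 in the other direction, also with overlap. This draws on the same *Comp* values that were without overlap on TPM, as does *Comp* minus *Thbs4*. The share of all genes without overlap on such measures was not counted. All 8 skeletal muscle markers had a higher estimate in knockouts on scaled TPM, with a median of 0.18, and without wild-type replicate 2 this was so for all but 2. On TPM as deposited the knockout means of *Ttn* (88.92 against 89.85 TPM) and *Mb* (3178 against 3234 TPM) were lower than those of wild type.

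Cartilage markers were close to absent: of 10, 9 had a mean below the filter, *Acan*, *Matn1* and *Snorc* were listed at 0 in every library, and the sum was 1.66 to 4.16 TPM in knockouts and 1.72 to 3.95 TPM in wild type. Bone markers summed to 6.55 to 7.85 and 5.82 to 9.20 TPM, with 1 of 8 above the filter and *Bglap*, *Bglap2* and *Mepe* listed at 0 in every library. Leukocyte markers summed to 21.84 to 25.54 TPM in knockouts and 26.20 to 51.47 TPM in wild type, and 5 of the 6 tested were lower at an unadjusted p of 0.05, of which *Cd52* also passed an adjusted p of 0.05 in limma. Without wild-type replicate 2 these 5 were lower at an unadjusted p of 0.05 as well, but *Cd52* had a limma adjusted p of 0.055. Adipocyte markers summed to 121.20 to 173.82 and 108.56 to 335.07 TPM, endothelial markers to 70.36 to 79.18 and 72.10 to 88.75 TPM, and nerve markers to 44.54 to 59.97 and 55.80 to 67.90 TPM. In wild type the highest adipocyte, endothelial, nerve and leukocyte sums were all in replicate 3. The part of the fibroblast, leukocyte and muscle values in the differences of the tendon genes was not tested, and how much tendon and fascia each dissected muscle kept was not given in the sources used here.

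Other genes with the pattern of each member were named, for 8 of the 9, by the highest Pearson r over the 8 libraries among 12654 genes averaging 1 TPM or more outside the members. The r is a measure of likeness over libraries that share the genotype difference, and the highest of so many is high by selection. For *Kera* it was *Loxl2* (r = 0.978), for *Fmod* *Jmjd4* (0.982), for *Tnmd* *Abtb2* (0.974), for *Thbs4* *Tnc* (0.967), for *Chad* *Ptgfr* (0.962), for *Prg4* *L3mbtl3* (0.952), for *Scx* *Mdm2* (0.956) and for *Mkx* *Dbndd2* (0.973). The mean pattern of the 9 genes was most like that of *Col12a1* (0.988), followed by *Zfp185* (0.978), *Pold2* (0.977), *Peli1* (0.971) and *Jmjd4* (0.965).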

How the data were processed

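Quadriceps RNA of 4 *Nup210*-/- and 4 *Nup210*+/+ mice was compared, grouped by the sample labels. The authors enriched polyadenylated RNA for directional libraries, read from 1 end, trimmed reads with cutadapt 2.3, aligned them to mm10 with STAR 2.7.0d and estimated expression with RSEM 1.3.1 on Ensembl annotations. The authors deposited TPM per gene and library with 2 decimals. The authors tested estimated counts, which were not used here.

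TPM were divided by a median-of-ratios factor (15225 genes above 0 in all libraries), and log2(scaled TPM + 1) of genes averaging at least 0.5 TPM was fitted with limma 3.58.1 in R 4.3.3 (trend, genotype only, Benjamini-Hochberg adjustment). Exact permutation tests were two-sided over 70 labelings. The fit was tested on simulated data. Genes named were the 9 members, in each list the lowest and highest log2 fold change and any past an adjusted p of 0.05, and the genes of most similar pattern; *Col1a1*, *Dcn*, *Bgn* and others past an unadjusted p were added after their values were seen. Some genes that this rule names are not reported here. Members and lists were chosen with earlier results of these data known. Replicates were separate mice. Depth is unknown, so no interval for a single library is given. Positions and exons are from GENCODE M21 (GRCm38), by Ensembl identifier. *Cnmd* and *Snorc* were matched under the older symbols of the table. Alternatives were pseudocounts, filters, scalings, eBayes settings, library weights, a replicate block and each library left out. Values of the other lists without *Nup210*+/+ replicate 2 were added after seeing the data. Figures were drawn with matplotlib 3.10.9.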

Additional observations from a re-analysis of the deposited data

Results flagged for a closer look

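In each genotype the highest and lowest library of each of the 9 genes and of their sum was compared with the nearest other library, as the gap over the range of the 4. Of 20 groups examined, 7 had a gap above Dixon's 95% critical value, which chance gives in about 1 in 20 groups. *Nup210*-/- replicate 2 was far above the other *Nup210*-/- libraries for *Fmod* (gap 0.905 of the range), *Thbs4* (0.877), *Prg4* (0.864) and the sum of the 9 genes (0.925), which share that library and are not separate events. *Nup210*+/+ replicate 3 was far above for *Prg4* (0.835). *Nup210*+/+ replicate 2 was far below for *Tnmd* (0.886), and *Nup210*-/- replicate 1 far below for *Scx* (0.882).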

How the results depend on the processing

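No member passed an adjusted p of 0.05 in limma, lower or higher, under any of the 18 alternatives, and the lowest adjusted p was 0.0622, for *Comp* under library weights. The members lower at an unadjusted p of 0.05 numbered 4 to 7 when single libraries were left out: *Thbs4* and *Chad* were lost without *Nup210*-/- replicate 1, without *Nup210*-/- replicate 3 or without *Nup210*+/+ replicate 3, *Thbs4* alone without *Nup210*-/- replicate 4, *Nup210*+/+ replicate 4 or with the replicate block (5 members), and *Prg4* was added without *Nup210*-/- replicate 2. Beside these counts, all genes past that p in either direction ranged from 1573 of 14274 (without *Nup210*-/- replicate 1) to 2689 of 14243 (without *Nup210*+/+ replicate 4). Without *Nup210*-/- replicate 2 they were 1827 of 14272. The members without overlap numbered 1 to 6 when libraries were left out, all lower, beside 6.11 to 8.9% of all genes lower without overlap. The number was above 1 only without *Nup210*-/- replicate 2 or *Nup210*+/+ replicate 2, which stood out in these same genes. The log2 fold change of *Comp* ranged from -1.14 to -0.85 over all alternatives. That of *Mkx* ranged from -0.16 to 0.10 with libraries left out, where it reversed without *Nup210*-/- replicate 3 (0.0998). With a pseudocount of 0.1 the value of *Mkx* was -0.20, its lowest over all alternatives. *Mkx* was not tested at a mean TPM of at least 1. All genes called numbered 16, and 1 with no filter, 27 with a mean TPM of at least 1, 0 with upper-quartile scaling (2071 at an unadjusted p of 0.05), eBayes without trend (1952) or the replicate block (1850) in limma, 84 with library weights, and 0 to 10 with libraries left out. TPM as deposited moved the median of all genes to -0.08. *Comp* minus *Thbs4* ranged from -0.51 to -0.40 with libraries left out, where 3 against 4 libraries cannot reach an exact p below 0.0571, and was -0.47 with the replicate block, where the smallest exact p is 0.125. *Kera* minus *Fmod* ranged from -0.126 to 0.0635 with libraries left out, reversing in 4 of 8. Whether numbers shared between genotypes pair the mice is not given by the labels. Deviations of same-numbered libraries correlated across genes at -0.033 to 0.086, and not every library correlated best with its own number. With 4 libraries per genotype these values cannot decide whether the mice were paired. Because read depth is unknown, the counting error of low genes such as *Mkx* cannot be given.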
